A study of Mus musculus with 21 samples.

Results

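The genes described are 10 protein-coding neighbours of Jak1 on mouse chromosome 4, namely Ror1, Cachd1, Raver2, Ak4, Dnajc6, Leprot, Lepr, Pde4b, Sgip1 and Mier1. The rule was a list of symbols lying within a few megabases of Jak1 and used no measured value, although the list was drawn up with earlier results of these data known. They are 10 of the 24391 genes counted. The study edited Jak1 by CRISPR-Cas9 with a donor oligonucleotide in C57BL/6J zygotes and sequenced the RNA of brain, liver and skin of newborn (P0) mice, labelled C57BL/6. There were 2 heterozygous knock-in mice (KI; Jak1 H595D/+;I596I/+;Y597Y/+) and 5 wild-type mice (WT), each with 1 library per tissue, so that every tissue had 7 libraries and the series 21. A genotype and number shared by libraries of different tissues was read as 1 mouse. As the study describes it, KI pups descended from 1 mosaic KI male mated with WT mice, so that the KI mice rest on 1 founder, and the labels give neither litter nor sex. The question was whether the edited allele came with changes in the genes around it.

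JAK1 is a cytoplasmic tyrosine kinase that is bound to cytokine receptors and phosphorylates STAT proteins when the receptor is engaged. Genes that lie near an edited site stay linked to the edited allele through breeding, and a repair event can in principle extend beyond the intended bases, which is why the expression of flanking genes is examined in edited animals. The neighbours of Jak1 do not form a pathway: they include the leptin receptor and a protein that limits its surface level, a Wnt receptor, a cAMP phosphodiesterase, clathrin-coat proteins, a mitochondrial nucleotide kinase and nuclear regulators.

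The edited codon and the bases beside it are shown because all distances below are counted from there. On mm9 (NCBIM37) codon 595 of Jak1, CAT for histidine, lies at chr4:100837174-100837176 on the minus strand, in exon 13 of the 25 exons of transcript Jak1-001, within a gene that spans chr4:100824972-100937887. The reference sequence of chr4:100837144-100837206, read 5′ to 3′ on the minus strand with the codon in capitals, is as follows.
Jak1 codon 595 with 30 bases on each side: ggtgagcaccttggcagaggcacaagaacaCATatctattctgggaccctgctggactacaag

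On the same build the 10 neighbours spanned chr4:99768396-102838359, which is 3.07 Mb, and all 10 were annotated on the plus strand, opposite to Jak1. At lower coordinates than the edited codon lay Ror1 (chr4:99768396-100117370, 719.8 kb away), Cachd1 (chr4:100449280-100701825, 135.3 kb) and Raver2 (chr4:100741588-100824975, 12.2 kb). On the other side lay Ak4 (chr4:101091882-101140376, 254.7 kb), Dnajc6 (chr4:101169253-101315404, 332.1 kb), Leprot (chr4:101320323-101331969, 483.1 kb) and Lepr (chr4:101390009-101487957, 552.8 kb). Farther out came Pde4b (chr4:101760148-102279864, 923 kb), Sgip1 (chr4:102413902-102646233, 1576.7 kb) and Mier1 (chr4:102786995-102838359, 1949.8 kb). The 3′ ends of Raver2 and Jak1 overlapped by 4 bases, and the 5′ ends of Mier1 and Wdr78 by 166 bases on opposite strands. Sgip1 shared 6363 bases with the antisense gene Gm12709. The library kit does not mark strand, so that reads within these overlaps cannot be assigned to either gene.

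The promoters were searched for TTCNNNGAA, the palindromic core that STAT factors bind, because JAK1 acts through STATs. RefSeq promoters on GRCm38.p6, covering 250 bases before to 50 bases after a transcription start, were found for 10 of the 10 genes and gave 19 windows of 300 bases. Of these, 1 held the motif, against 8.3% of the 32851 promoter windows of all genes. It belonged to Pde4b, at chr4:102569810-102570109 on the plus strand of GRCm38.p6, and is shown with the motif in capitals.
Pde4b promoter: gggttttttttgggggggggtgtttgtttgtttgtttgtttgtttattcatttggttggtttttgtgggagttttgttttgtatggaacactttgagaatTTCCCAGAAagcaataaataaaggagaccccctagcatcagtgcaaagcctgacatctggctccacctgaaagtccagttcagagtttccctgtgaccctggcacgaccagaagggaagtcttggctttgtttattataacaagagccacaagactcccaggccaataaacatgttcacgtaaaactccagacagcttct
A match of this kind describes letters in a window and not a bound site.

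Between 26549326 and 38388133 reads were counted in genes per library. Reads discarded as ambiguous between genes made up 1.15% to 2.19% of uniquely aligned reads. Among brains the share was 1.76% in WT 5 and 1.15% to 1.19% in the others. The study reports a lower mean RNA integrity for its skin samples than for its liver samples, with ranges that do not overlap. Skin values, and differences between skin and another tissue, carry that limit. The tissues carried their own markers. Alb was at 87980 CPM or more in every liver library and Tubb3 at 2099 CPM or more in every brain library. Krt5 was at 442.6 to 2551 CPM in skin, where the samples were uneven. There the sum of 5 keratinocyte markers was 13530 CPM in KI 1 and 850.3 CPM in KI 2, and 1447 to 16500 CPM in WT. The part of this spread in the skin comparisons was not tested. CPM is a gene's count scaled to a common library total, with correction within a tissue by the trimmed mean of M values (TMM). The brain of WT 5 stood apart, with the lowest brain values of Jak1, Cachd1, Raver2, Dnajc6, Pde4b and Sgip1. Its sum of 7 neuron markers was the highest, at 7779 CPM against 5454 to 6511 CPM in the other brains. That sum mainly follows Tubb3 and Stmn2, at 2099 and 1980 CPM or more in every brain. None of the other markers on the list exceeded 674.9 CPM in a brain. The brain differences of the neighbours are also given without WT 5. Whether the labelled replicates differ by litter or day is not given, so p-values measure the spread between these mice.

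Jak1 itself was measured first. Its level in brain was 188 and 183 CPM in KI 1 and KI 2 and 160.1, 179, 186, 161 and 114 CPM in WT 1 to WT 5, and the groups overlapped (log2 fold change 0.21, SE 0.182, adjusted p = 0.719 by edgeR; log2 fold change 0.13 without WT 5, the lowest brain). In liver it was 196 and 208 CPM in KI 1 and KI 2 and 168, 164, 168, 173 and 147 CPM in WT 1 to WT 5. The KI values in liver exceeded every WT value, with 202 ± 8.28 CPM (SD, n = 2) against 164 ± 9.95 CPM (SD, n = 5), but the gene did not pass the threshold of adjusted p under 0.1 (log2 fold change 0.30, SE 0.0914, adjusted p = 0.125). It passed by DESeq2 (adjusted p = 0.0525), with a length trend (0.0679) and without WT 4 (0.0854). Skin held 212 and 205 CPM in KI 1 and KI 2 and 175, 178, 195, 198 and 171 CPM in WT 1 to WT 5, again with both KI values above every WT value (log2 fold change 0.18, SE 0.102, adjusted p = 0.999). The gene counts do not tell the edited from the unedited allele, so they check neither label.

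None of the 10 neighbours passed edgeR's quasi-likelihood test between KI and WT in any tissue at an adjusted p under 0.1, and all 10 could be tested in each. The test called 0% of 16322 genes in brain, 5.57% of 14966 genes in liver (3.89% higher and 1.68% lower in KI) and 0.0247% of 16163 genes in skin. At an unadjusted p under 0.05, 0 of the neighbours passed in brain (10.6% of all genes; 457 higher and 1275 lower), 3 in liver (17.9%; 1421 higher and 1258 lower) and 0 in skin (4.57%). DESeq2's Wald test called 0 neighbours in brain (3.4% of the 15116 genes it adjusted), 2 in liver, Pde4b and Ror1 (9.25% of 15806), and 0 in skin (0.7% of 15561).

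The direction of the fitted differences varied by tissue. In brain 9 of the 10 neighbours had a log2 fold change above 0 and 1 below, with a median of 0.20 against -0.02 over all genes tested. With a trend for gene length in the fit the same count was 5 above and 5 below, with a median of 0.01. In liver 5 lay above 0 and 5 below (median -0.08, all genes -0.02), and in skin 4 above and 6 below (median -0.06, all genes -0.03). Groups that did not overlap at all were found for 1 neighbour in brain, where 27% of all genes tested had this property (11.2% with KI above and 15.8% with KI below), for 3 in liver (24.4% of all genes, 13% above and 11.3% below) and for 0 in skin (9.75%, 4.91% above and 4.84% below). With only 10 neighbours, these counts are not read as a difference from all genes or between tissues. The 3 in liver were Lepr and Pde4b (higher in KI) and Ror1 (lower in KI).

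Since the WT 5 brain stood apart, the brain comparison was repeated without it. edgeR then called 672 genes higher and 1026 lower in KI, and 0 of the 10 neighbours. With only 10 neighbours, that 0 is not read as a difference from all genes. The log2 fold change moved from 0.18 to 0.05 for Dnajc6, from 0.35 to 0.22 for Raver2, from 0.53 to 0.38 for Cachd1, from 0.22 to 0.15 for Sgip1 and from 0.17 to 0.11 for Pde4b. It moved from 0.02 to 0.19 for Ak4, from 0.47 to 0.41 for Lepr, from -0.29 to -0.25 for Leprot and from 1.07 to 0.94 for Mier1, and that of Ror1 turned from 0.04 to -0.24. Of the neighbours 8 then lay above 0 and 2 below.

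**Figure D1:**
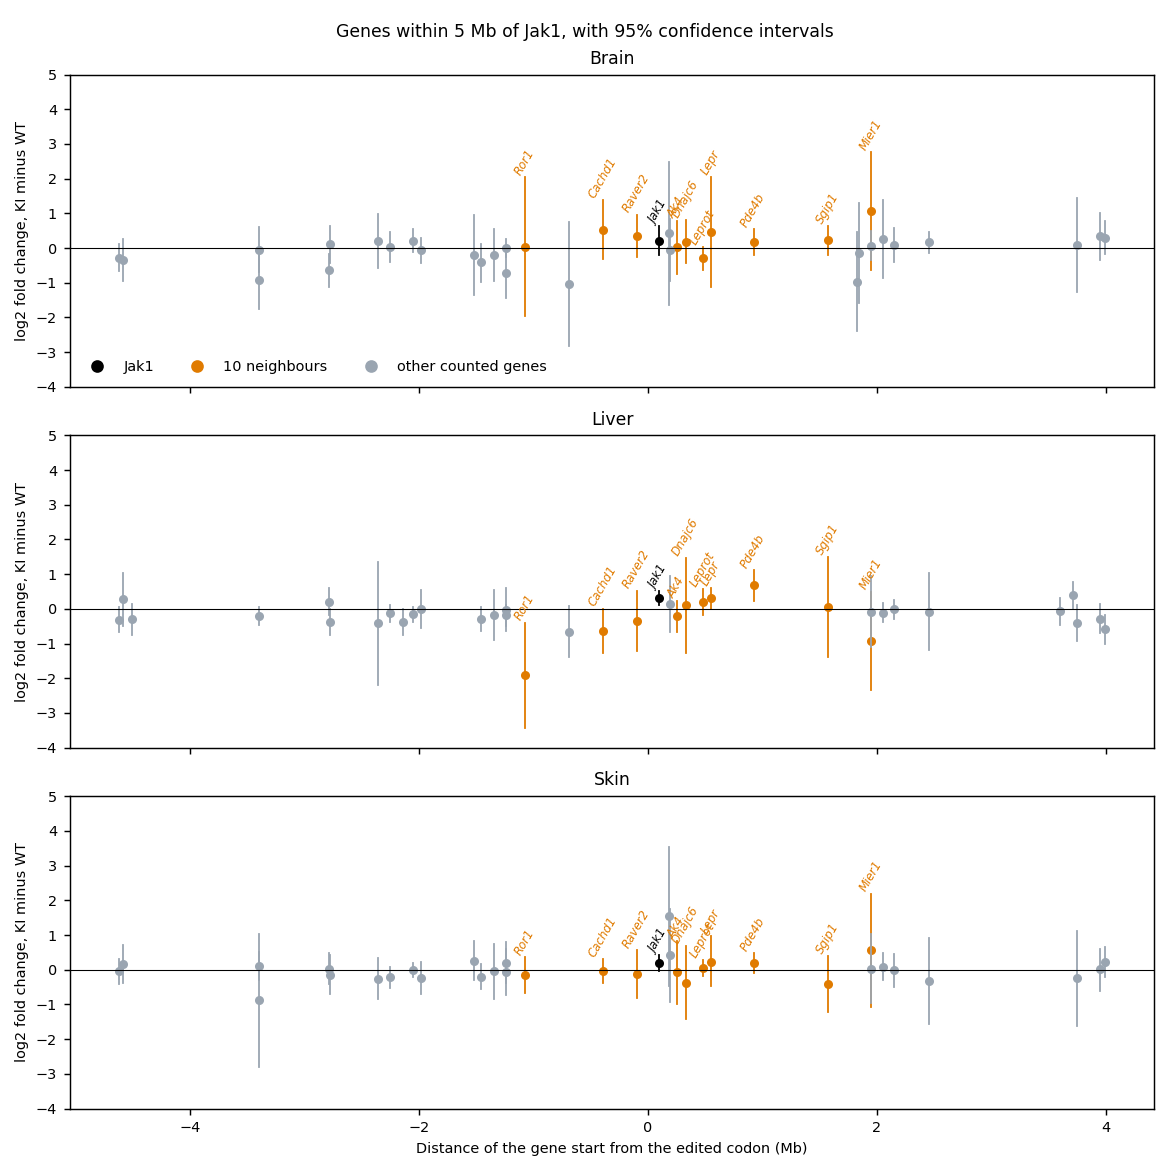
Fitted log2 fold change between KI and WT (vertical axis) of every tested gene within 5 Mb of Jak1 against the distance of its start from the edited codon in Mb (horizontal axis), in 1 panel per tissue. Points are estimates and lines 95% confidence intervals (2 KI and 5 WT mice); of the 10 neighbours, only Pde4b and Ror1 in liver have intervals that clearly leave out 0, and neither passed the adjusted threshold.

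The wider segment was counted as well. Within 5 Mb on each side, 143 genes other than Jak1 were annotated, of which 61 were protein coding, and 54 were present among the counted genes, including the 10 neighbours. Of the 44 others, 27 were tested in brain, 26 in liver and 24 in skin, and 0 were called in each tissue by edgeR. Their median log2 fold change was -0.04 in brain (12 above 0 and 15 below), -0.17 in liver (4 above and 22 below) and -0.02 in skin (11 above and 13 below). Over all genes tested in liver, 7001 lay above 0 and 7965 below.

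**Figure D2:**
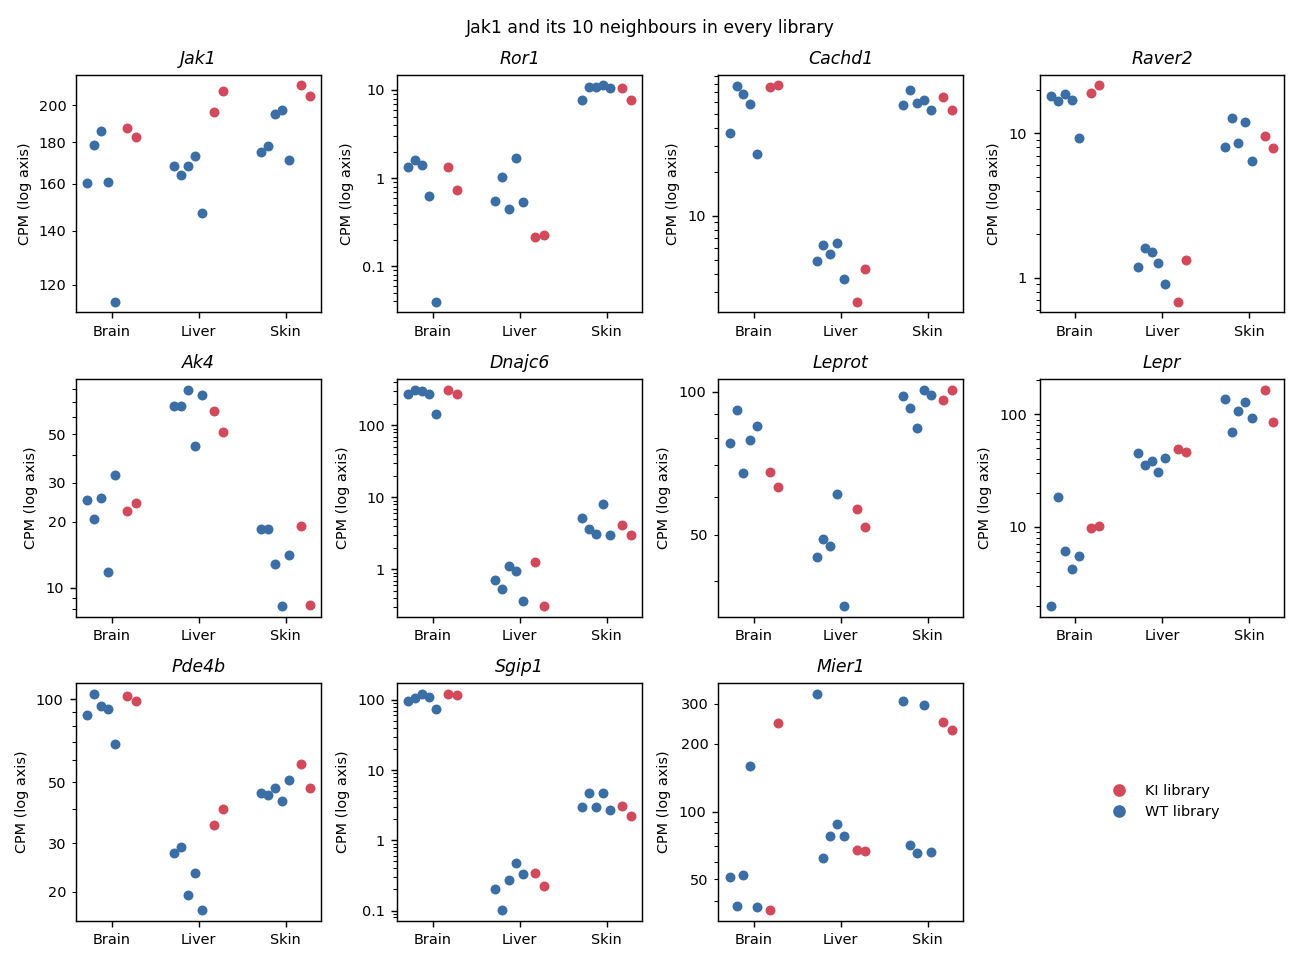
Level of Jak1 and its 10 neighbours in every library (vertical axis, CPM on a log scale; the range differs between panels) by tissue, with KI libraries in red and WT libraries in blue. KI and WT points intermingle for most genes; Mier1 falls into separated high and low libraries in each tissue.

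Among the cell surface proteins, Ror1 encodes a receptor tyrosine kinase-like protein that binds Wnt5a. Ror1 was scarce in liver, with 0.218 and 0.227 CPM in KI 1 and KI 2 and 0.549, 1.02, 0.444, 1.7 and 0.541 CPM in WT 1 to WT 5. Both KI values were below the lowest WT value, which rested on 7 and 8 reads in KI and 13 to 54 reads in WT (log2 fold change -1.92, SE 0.675, 95% confidence interval -3.44 to -0.40, adjusted p = 0.182). DESeq2 called it (adjusted p = 0.0761) and edgeR did not. In the same livers the summed level of 4 fibroblast markers was 371 to 412 CPM in KI and 340.1 to 893 CPM in WT, and the WT 2 and WT 4 livers, highest for these markers, were highest for Ror1. Whether fibroblast content contributed was not tested, and in bulk tissue fewer cells of a type and less RNA per cell cannot be told apart. Brain held 1.34 and 0.726 CPM in KI 1 and KI 2 and 1.33, 1.59, 1.41, 0.6252 and 0.0399 CPM in WT 1 to WT 5, with 1 read in WT 5, and the groups overlapped (log2 fold change 0.04, SE 0.87, adjusted p = 0.992). Skin, where the gene was highest, held 10.7 and 7.75 CPM in KI 1 and KI 2 and 7.74, 10.8, 10.8, 11.3 and 10.4 CPM in WT 1 to WT 5, also overlapping (log2 fold change -0.15, SE 0.22, adjusted p = 0.999). Its relative Ror2 was at 0.378 ± 0.213 CPM (SD, n = 2) in KI livers and 1.11 ± 0.692 CPM (SD, n = 5) in WT livers and was not called (adjusted p = 0.294).

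Cachd1 encodes a membrane protein related to the auxiliary alpha2delta subunits of calcium channels. In brain it was at 75.9 and 78.0 CPM in KI 1 and KI 2 and 36.9, 76.6, 68.1, 58.4 and 26.5 CPM in WT 1 to WT 5. KI 1 and KI 2 lay close together at the top of the WT range, in which WT 1 and WT 5 were low (log2 fold change 0.53, SE 0.367, adjusted p = 0.661). In liver the values were 2.58 and 4.32 CPM in KI 1 and KI 2 and 4.88, 6.25, 5.49, 6.53 and 3.67 CPM in WT 1 to WT 5. KI 1 was the lowest liver and KI 2 lay between the lowest and the next WT liver (log2 fold change -0.63, SE 0.286, adjusted p = 0.286). Skin showed 64.8 and 53.2 CPM in KI 1 and KI 2 and 57.1, 72.6, 59.1, 61.7 and 52.5 CPM in WT 1 to WT 5, with full overlap (log2 fold change -0.04, SE 0.147, adjusted p = 0.999).

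The direction of the difference for Cachd1 thus differed between brain and liver, and a test of that difference over all 21 libraries, with mouse as a block, gave the following. The KI effect in liver minus that in brain was -1.33 on the log2 scale (SE 0.340, adjusted p = 0.0867), which made Cachd1 the only one of the 10 neighbours called, where 2.6% of 18062 genes were. The call was lost with no filter on low counts, with no mouse block, at adjusted p under 0.05, and without KI 1, KI 2, WT 1, WT 2 or WT 4. The range of the count over leaving out each mouse was 0 to 1. For skin minus brain 0 of the neighbours were called (0% of genes), and for liver minus skin 0 (0.0941%).

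Of the nuclear and RNA-binding neighbours, Raver2 encodes a protein with RNA recognition motifs that binds the splicing repressor PTB. It lies next to Jak1, tail to tail. In brain it was at 19.1 and 21.5 CPM in KI 1 and KI 2 and 18.04, 16.7, 18.8, 16.9 and 9.34 CPM in WT 1 to WT 5. Both KI brains lay above all WT brains, the one neighbour of which this was so in brain, by a margin smaller than the spread of WT (log2 fold change 0.35, SE 0.267, adjusted p = 0.69). The WT 5 brain was far below the other WT brains. In liver the level was 0.685 and 1.34 CPM in KI 1 and KI 2 and 1.19, 1.61, 1.5, 1.26 and 0.902 CPM in WT 1 to WT 5, from 22 and 47 reads in KI and 30 to 63 in WT (log2 fold change -0.35, SE 0.385, adjusted p = 0.682). KI 1 was the lowest liver and KI 2 lay inside the WT range. Skin held 9.61 and 7.89 CPM in KI 1 and KI 2 and 8.04, 12.8, 8.64, 11.9 and 6.42 CPM in WT 1 to WT 5, with overlap (log2 fold change -0.13, SE 0.296, adjusted p = 0.999).

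Mier1, the neighbour farthest from the edited codon, encodes a nuclear protein that recruits histone deacetylases and represses transcription. Brain held 36.6 and 248 CPM in KI 1 and KI 2 and 51.5, 37.9, 52.3, 159 and 37.5 CPM in WT 1 to WT 5. Liver held 67.5 and 66.6 CPM in KI 1 and KI 2 and 333, 62.5, 78.3, 87.8 and 77.9 CPM in WT 1 to WT 5. Skin held 249.9 and 229 CPM in KI 1 and KI 2 and 309.9, 71.3, 65.3, 298 and 66.3 CPM in WT 1 to WT 5. In each tissue the libraries separated into a low set and a high set with a gap between them. The high sets of brain and skin mixed KI and WT. In brain the 2 high libraries were KI 2 and WT 4, at 159 to 248 CPM against 36.6 to 52.3 CPM in the other 5, a gap of 3.04-fold. In liver only WT 1 was high, 3.79-fold above the next library. In skin KI 1, KI 2, WT 1 and WT 4 were high at 229 to 309.9 CPM, and WT 2, WT 3 and WT 5 low at 65.3 to 71.3 CPM. The high libraries, picked out after their values were seen, came from 4 of the 7 mice, and WT 2, WT 3 and WT 5 were low in every tissue.

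Few genes had gaps of this size. Of 7392 genes with a mean above 10 CPM in every tissue, 4 had a largest gap between neighbouring libraries of at least 1.5 on the log2 scale in all 3 tissues. These were Mier1 and the sex-linked genes Xist, Ddx3y and Eif2s3y. The limit of 1.5 lies just below the smallest gap of Mier1, so the presence of Mier1 among them is no result in itself. The largest gaps of Mier1 were 1.60 in brain, 1.92 in liver and 1.68 in skin. Sex as read from Ddx3y and Eif2s3y marked KI 2 and WT 3 as the male mice, which is a different split of the mice. The genes beside Mier1 did not share the separation: across 21 libraries, after the mean of each tissue was removed, Pearson's r with Mier1 was 0.02 for Wdr78 and 0.32 for Slc35d1, and the highest r of any gene was 0.74, for Nup210. These are descriptions over libraries that share mice. The difference between KI and WT for Mier1 was not called in brain (log2 fold change 1.07, SE 0.737, adjusted p = 0.661), liver (log2 fold change -0.93, SE 0.632, adjusted p = 0.484) or skin (log2 fold change 0.56, SE 0.701, adjusted p = 0.999). The log2 fold change in brain turned to -0.88 without KI 2, and that in liver shrank to -0.19 (SE 0.135) without WT 1. The relatives Mier2 and Mier3 kept narrow ranges, for example 38.4 to 50.2 CPM for Mier2 in WT brain.

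**Figure D3:**
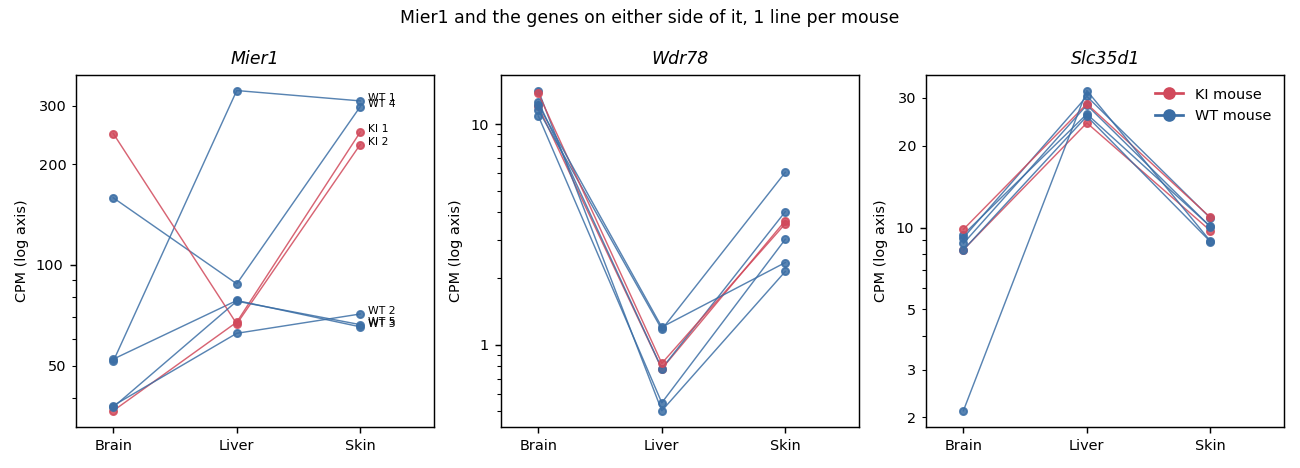
Level of Mier1 and of the genes on either side of it, Wdr78 and Slc35d1 (vertical axes, CPM on a log scale), in brain, liver and skin (horizontal axis), with 1 line per mouse, KI in red and WT in blue. Mier1 shows high and low libraries in each tissue, and the same mouse can be high in 1 tissue and low in another, as WT 1 is in liver and brain.

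Of the enzymes, Pde4b encodes a phosphodiesterase that degrades cAMP and is abundant in leukocytes. Its liver level was 35.0 and 39.9 CPM in KI 1 and KI 2 and 27.7, 29.1, 19.4, 23.4 and 17.2 CPM in WT 1 to WT 5. Both KI livers exceeded the highest WT liver, and the mean was 37.4 ± 3.48 CPM (SD, n = 2) against 23.4 ± 5.15 CPM (SD, n = 5), the largest rise in fit among the neighbours in liver (log2 fold change 0.68, SE 0.194, 95% confidence interval 0.24 to 1.11, adjusted p = 0.105). Its adjusted p lay just above the threshold and passed it under 4 alternatives, namely with no filter on low counts (0.0925), with a length trend (0.0468), by DESeq2 (0.0314) and without WT 2 (0.0905). In the same livers the sum of 5 lymphocyte markers was 72.8 to 73.1 CPM in KI and 40.5 to 55.1 CPM in WT. Of that list, Cd79a and Cd79b were called higher in KI and Cd3e was at or near 0 in every liver. The sum of 5 macrophage markers was 531 to 625 CPM in KI and 348 to 443 CPM in WT, and 4 of those 5 were called higher. The sum of 5 neutrophil markers was 5404 to 6343 CPM in KI and 3384 to 4448 CPM in WT, with 2 of the 5 called. The part of these cells in the Pde4b level was not tested. Pde4a, Pde4c and Pde4d, the other members of the family, had log2 fold changes of -0.12, 0.27 and -0.01 in liver and were not called.

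In brain Pde4b was at 103 and 98.9 CPM in KI 1 and KI 2 and 87.8, 105, 94.3, 92.3 and 68.9 CPM in WT 1 to WT 5, with overlap (log2 fold change 0.17, SE 0.162, adjusted p = 0.746). Skin held 58.3 and 47.6 CPM in KI 1 and KI 2 and 45.7, 44.9, 47.6, 42.7 and 51.1 CPM in WT 1 to WT 5. KI 1 was the highest skin library and KI 2 lay inside the WT range (log2 fold change 0.19, SE 0.119, adjusted p = 0.999). Ak4 encodes an adenylate kinase of the mitochondrial matrix. Its brain level was 22.4 and 24.3 CPM in KI 1 and KI 2 and 25.0, 20.5, 25.5, 11.8 and 32.6 CPM in WT 1 to WT 5, with the KI values inside the WT range (log2 fold change 0.02, SE 0.334, adjusted p = 0.99). Liver, where it was highest, held 64.0 and 51.1 CPM in KI 1 and KI 2 and 67.4, 67.3, 79.7, 44.3 and 75.3 CPM in WT 1 to WT 5 and the KI values again lay within the WT range (log2 fold change -0.22, SE 0.203, adjusted p = 0.623). In skin the values were 19.0 and 8.38 CPM in KI 1 and KI 2 and 18.6, 18.6, 12.8, 8.28 and 14.1 CPM in WT 1 to WT 5. KI 1 was the highest skin and KI 2 next to the lowest (log2 fold change -0.08, SE 0.393, adjusted p = 0.999).

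Dnajc6 and Sgip1 act in clathrin-mediated endocytosis. Dnajc6 encodes auxilin, the neuronal co-chaperone that removes clathrin coats from vesicles, and Sgip1 an endocytic adaptor of synapses. In brain Dnajc6 was at 315 and 277 CPM in KI 1 and KI 2 and 269, 314, 302, 277 and 144 CPM in WT 1 to WT 5. All brains but WT 5 lay between 269 and 315 CPM, and KI and WT overlapped (log2 fold change 0.18, SE 0.271, adjusted p = 0.849). Sgip1 in brain was at 122 and 115 CPM in KI 1 and KI 2 and 96.7, 107, 121, 109 and 73.8 CPM in WT 1 to WT 5, with WT 5 lowest and KI 1 highest (log2 fold change 0.22, SE 0.182, adjusted p = 0.708). In liver both were near the limit of detection. Dnajc6 had 1.28 and 0.313 CPM in KI 1 and KI 2 and 0.723, 0.536, 1.13, 0.942 and 0.361 CPM in WT 1 to WT 5 there (log2 fold change 0.11, SE 0.607, adjusted p = 0.95), and the KI pair took in the highest and the lowest liver. Sgip1 had 0.342 and 0.227 CPM in KI 1 and KI 2 and 0.202, 0.102, 0.273, 0.471 and 0.331 CPM in WT 1 to WT 5 (log2 fold change 0.06, SE 0.637, adjusted p = 0.975). These liver values rest on few reads and their intervals are wide, from -1.26 to 1.47 for Dnajc6 and from -1.38 to 1.49 for Sgip1. In skin Dnajc6 was at 4.16 and 2.98 CPM in KI 1 and KI 2 and 5.23, 3.69, 3.07, 8.13 and 2.96 CPM in WT 1 to WT 5 (log2 fold change -0.37, SE 0.451, adjusted p = 0.999). Sgip1 in skin was at 3.12 and 2.24 CPM in KI 1 and KI 2 and 2.94, 4.71, 2.98, 4.68 and 2.68 CPM in WT 1 to WT 5 (log2 fold change -0.42, SE 0.349, adjusted p = 0.999). KI 2 was the lowest skin library for Sgip1 and next to the lowest for Dnajc6, and KI 1 lay inside the WT range for both. The relatives Gak, Fcho1 and Fcho2 were not called in any tissue.

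Lepr encodes the leptin receptor, a cytokine receptor that signals through JAK2 and STAT3, and Leprot (endospanin) a small membrane protein that lowers the amount of leptin receptor at the cell surface. The 2 genes are adjacent and their annotated spans do not overlap. Leprot in brain was at 68.0 and 63.0 CPM in KI 1 and KI 2 and 78.2, 91.5, 67.5, 79.1 and 84.6 CPM in WT 1 to WT 5. KI 2 was the lowest brain and KI 1 lay just above the lowest WT brain (log2 fold change -0.29, SE 0.144, adjusted p = 0.53). With the replicate number as a block Leprot was called in brain (log2 fold change -0.37, adjusted p = 0.0957 by edgeR). The labels do not say whether the numbers pair mice. In liver Leprot was at 56.6 and 51.9 CPM in KI 1 and KI 2 and 44.9, 48.9, 47.3, 60.9 and 35.5 CPM in WT 1 to WT 5 (log2 fold change 0.19, SE 0.171, adjusted p = 0.606). Skin had 96.3 and 101 CPM in KI 1 and KI 2 and 98.1, 92.3, 83.8, 101 and 98.3 CPM in WT 1 to WT 5 (log2 fold change 0.06, SE 0.103, adjusted p = 0.999). The KI values lay within the WT range in liver and skin.

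Lepr in liver was at 48.8 and 45.9 CPM in KI 1 and KI 2 and 45.5, 35.4, 38.7, 31.0 and 40.9 CPM in WT 1 to WT 5. Both KI livers were above every WT liver, by a narrow margin over WT 1 (log2 fold change 0.31, SE 0.136, 95% confidence interval 0.00 to 0.61, adjusted p = 0.279). In brain its values were 9.82 and 10.3 CPM in KI 1 and KI 2 and 2.00, 18.4, 6.07, 4.26 and 5.55 CPM in WT 1 to WT 5. In fold terms the WT brains spread over a range wider than that of any other neighbour in brain except Ror1, with WT 2 highest and WT 1 lowest, and the KI brains lay between (log2 fold change 0.47, SE 0.691, adjusted p = 0.843). The log2 fold change was 1.19 (SE 0.407) without WT 2 and 0.24 without WT 1. The summed level of 4 fibroblast markers in the same brains was 609 CPM in WT 2, 324 and 345 CPM in KI 1 and KI 2, and 167 CPM in WT 1, in the same order as Lepr in all 7 brains. Of that list, Pdgfra is also a marker of oligodendrocyte precursors. Over the 7 brains, Pearson's r of log2 levels with Lepr was 0.952 for fibroblast markers, 0.738 for endothelial markers and 0.085 for choroid plexus markers. How much of the Lepr level came from fibroblast-rich tissue such as meninges was not tested. Skin held 166 and 85.1 CPM in KI 1 and KI 2 and 136, 69.2, 106, 128 and 93.6 CPM in WT 1 to WT 5 (log2 fold change 0.24, SE 0.311, adjusted p = 0.999). KI 1 was the highest skin and KI 2 was second lowest, and the log2 fold change turned to -0.28 without KI 1.

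**Figure D4:**
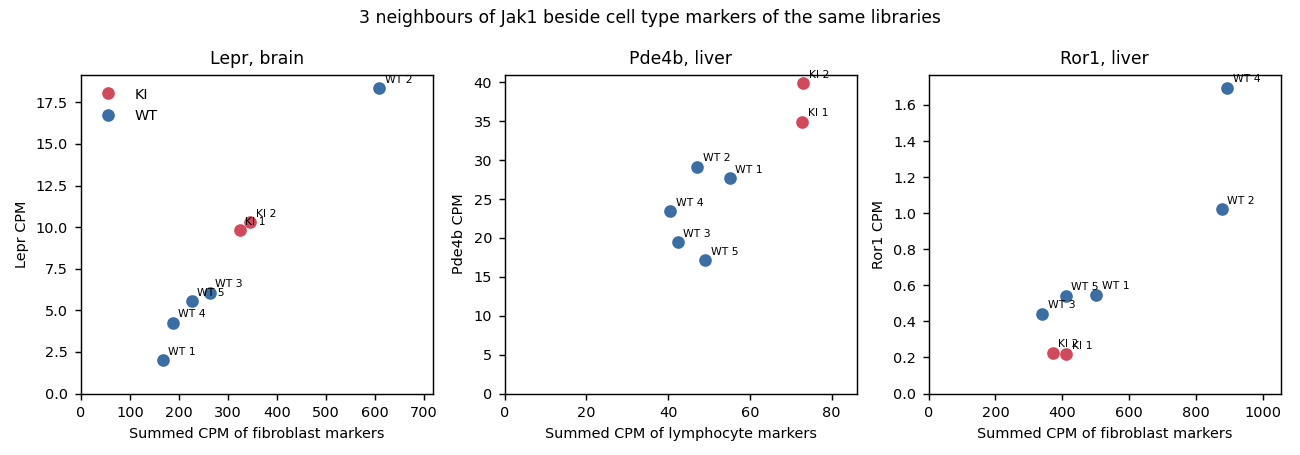
Level in CPM of Lepr in brain, Pde4b in liver and Ror1 in liver (vertical axes) against the summed CPM of fibroblast, lymphocyte and fibroblast markers of the same 7 libraries (horizontal axes), KI in red and WT in blue. For Lepr and Pde4b the marker list shown is the one with the highest Pearson's r of those compared. Lepr follows the order of the marker sum in brain, and both KI livers are highest for Pde4b and for lymphocyte markers. Both KI livers lie lowest for Ror1 at marker sums near those of WT 3 and WT 5.

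Receptors related to Lepr and a list of leptin signalling genes, which includes Lepr and Leprot, were counted for comparison. In liver, Csf3r, the receptor of granulocyte colony-stimulating factor, was called higher in KI with 44.9 ± 9.50 CPM (SD, n = 2) against 19.5 ± 4.87 CPM (SD, n = 5), a log2 fold change of 1.20 (SE 0.219, adjusted p = 0.0260). Of the leptin list, 9 genes were tested in liver and 3 were called higher in KI, where 3.89% of all genes were. These were Socs3, the feedback inhibitor (log2 fold change 2.09, adjusted p = 0.0120), Ptpn1, a phosphatase acting on JAK2 (0.54, adjusted p = 0.0271), and Stat3 (0.43, adjusted p = 0.0378). None of the list was called in brain (12 tested) or skin (13 tested) by edgeR. Leptin itself (Lep) was at 0 to 0.0314 CPM in liver libraries and 2.09 to 29.0 CPM in WT skin. Over the 22 relatives of the 10 neighbours, 1 was called in liver (19 tested, 5.57% of all genes called), 0 in brain (22 tested) and 0 in skin (21 tested). The relative of Jak1 that was called was Jak3, in liver (log2 fold change 0.64, SE 0.141, adjusted p = 0.0502).

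The normal tissue pattern of the neighbours was described in the 5 WT mice, per kilobase of exon so that genes could be compared. Levels scaled over all 21 libraries are given in CPM per kb. Dnajc6 stood at 35.4 ± 9.54 in brain, 0.671 ± 0.319 in skin and 0.173 ± 0.0702 in liver (SD, n = 5), a difference between brain and liver of 210-fold. Sgip1 had the same order, with 6.94 ± 1.26 in brain, 0.264 ± 0.0742 in skin and 0.0328 ± 0.0167 in liver, a 215-fold difference. Both genes are known for their work in neurons. Raver2 followed this order too (2.03 ± 0.493, 1.30 ± 0.365 and 0.286 ± 0.0627), with every step called by edgeR. Pde4b was highest in brain at 6.86 ± 1.09, with 3.81 ± 0.266 in skin and 3.11 ± 0.711 in liver.

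Other neighbours peaked elsewhere. Ak4 was a liver gene, at 17.3 ± 3.37 CPM per kb (SD, n = 5) against 3.43 ± 1.11 in brain and 2.31 ± 0.676 in skin, 7.59-fold above skin. Lepr was at 13.1 ± 3.33 in skin, 7.62 ± 1.00 in liver and 0.837 ± 0.755 in brain, and skin and liver did not differ by the test (adjusted p = 0.110 by edgeR). Ror1 was at 1.54 ± 0.218 in skin and far lower in liver and brain, which did not differ from one another by the test (adjusted p = 0.389). Cachd1 was at 8.73 ± 1.04 in skin and 7.17 ± 2.92 in brain against 1.25 ± 0.280 in liver. Leprot was nearly level, at 43.3 ± 3.33 in skin, 35.2 ± 7.07 in liver and 34.1 ± 3.98 in brain. Brain and liver did not differ by the test (adjusted p = 0.813). Skin was called higher by edgeR, with a log2 difference of -0.34 for brain minus skin (adjusted p = 0.0242). For liver minus skin it was -0.31 (adjusted p = 0.0426 by edgeR). Mier1 was at 14.3 ± 12.7 in liver, 11.2 ± 8.997 in skin and 4.35 ± 3.30 in brain, with SDs set by the separated libraries. Jak1 stood at 31.9 ± 2.00 in liver, 22 ± 1.55 in skin and 17.9 ± 3.30 in brain. Between brain and liver 8 of the 10 neighbours were called (83.7% of 17071 genes), between brain and skin 10 (79.3%) and between liver and skin 8 (72.8%), close to the shares over all genes.

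**Figure D5:**
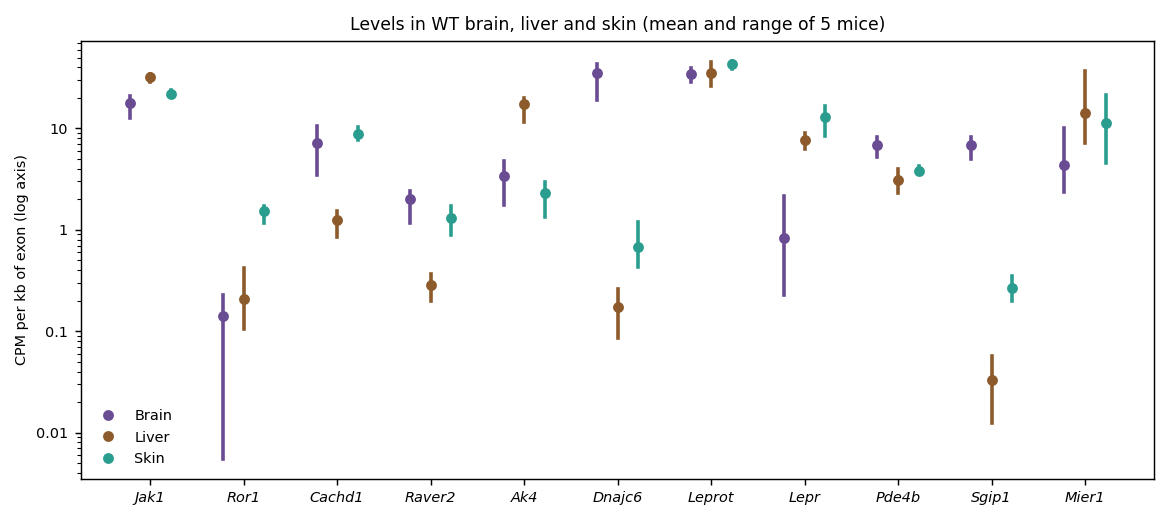
Levels of Jak1 and its 10 neighbours in WT brain, liver and skin (vertical axis, CPM per kb of exon on a log scale; points are means and lines the range of 5 mice). Dnajc6 and Sgip1 differ by 210-fold and 215-fold between brain and liver, whereas Leprot is nearly level across tissues.

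Genes whose pattern over the 21 libraries was most like that of a neighbour were found by Pearson's r of log2 CPM among 18061 genes, which mainly measures the differences between tissues. The closest gene to Sgip1 was Brinp2 (r = 0.99), to Dnajc6 Anks1b (0.99), to Cachd1 Atrnl1 (0.99), to Raver2 Pcdhgb7 (0.98) and to Lepr Dpp4 (0.98). For Ak4 it was Wdr55 (0.97), for Ror1 Eya4 (0.95), for Pde4b Parp8 (0.95) and for Leprot 4930577N17Rik (0.91). Mier1 had no close match, with Htra4 highest at 0.72. None of the closest genes was another of the 10 neighbours.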

How the data were processed

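RNA from brain, liver and skin of 7 newborn mice was sequenced from TruSeq libraries, which do not mark strand. Per the labels and the study's methods, the authors aligned adapter-trimmed reads to mm9 with TopHat2 and deposited raw HTSeq counts per gene symbol; tool versions and the gene annotation are not given in the sources used here. The 5 summary lines of each file were left out of library sizes and tests.

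Groups were taken from the labels. In each tissue 2 KI were compared with 5 WT libraries by edgeR 4.0.16 in R 4.3.3, with the quasi-likelihood test, filterByExpr, TMM scaling and Benjamini-Hochberg adjustment over all genes tested; a gene was called at an adjusted p under 0.1. Differences of the KI effect between tissues and differences between WT tissues were fitted with mouse as a block. Confidence intervals are at 95%. All 10 neighbours and Jak1 were named; other genes within 5 Mb and relatives were named where called, and the genes most like a neighbour by r. The lists and members were chosen with earlier results of these data known.

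Positions and exon lengths came from the GENCODE annotation of NCBIM37, which is mm9, and covered 85.4% of the counted symbols. Promoters came from RefSeq on GRCm38.p6, and positions were not converted between builds. Alternatives were DESeq2 1.42.0 (size factors and Wald test), no filter beyond 1 count, a gene length trend, Y-linked expression added as a covariate, 1 fit over the 21 libraries together, a block for replicate number, an adjusted p under 0.05 and leaving out each library or mouse. The scripts were tested on simulated data.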

Additional observations from a re-analysis of the deposited data

Results flagged for a closer look

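Of the 33 groups of 5 WT values examined (Jak1 and its 10 neighbours in 3 tissues), 6 held a library whose gap to the nearest other library exceeded Dixon's 95% critical value of 0.71 of the group's range; chance flags about 1 in 20 groups. In brain, WT 5 was low for Raver2 (9.34 CPM, nearest 16.7) and for Dnajc6 (144 CPM, nearest 269), WT 2 was high for Lepr (18.4 CPM, nearest 6.07) and WT 4 was high for Mier1 (159 CPM, nearest 52.3). In liver, WT 1 was high for Mier1 (333 CPM, nearest 87.8). In skin, WT 1 was low for Ror1 (7.74 CPM, nearest 10.4).

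The KI effect on Cachd1 differed between tissues by a test of the difference itself, at -1.33 on the log2 scale for liver minus brain (SE 0.340, adjusted p = 0.0867 by edgeR), and the call was lost under several alternatives.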

How the results depend on the processing

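The narrowest 95% confidence interval of the neighbours' log2 fold changes was that of Leprot in skin, -0.18 to 0.29. The widest was that of Ror1 in brain, -1.96 to 2.04. A difference of any size inside an interval remains possible for that gene. In brain 0 neighbours were called under every alternative but the replicate block, which called 1 (Leprot). In that block only the numbers 1 and 2 held both genotypes, so the other WT libraries did not enter its estimate. The deviations of same-numbered KI and WT libraries from their group means gave r from -0.0952 to 0.199 over 2 numbers and 3 tissues. With 2 KI mice the KI deviations mirror each other, so this cannot tell whether the numbers pair mice. The counts over all genes in brain were 514 by DESeq2, 614 with all 21 libraries, 2165 with the replicate block and 0 to 1698 leaving out each library, the highest without WT 5; within 5 Mb they were 1 (Tm2d1), 0, 4 (Dab1, E130114P18Rik, Leprot and Tm2d1) and 0 to 2 (Cyp2j9 and Tm2d1).

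In liver the neighbours called were 1 with no filter, 2 by DESeq2, 1 with the length trend and 0 to 1 leaving out each library; within 5 Mb the counts were 1, 3 (Ppap2b added), 1 and 0 to 2 (Ppap2b and C8a), and 1 with the replicate block (Ppap2b), all without Jak1 itself. Over all genes in liver they were 1462 by DESeq2, 242 with all 21 libraries, 379 with the Y-linked covariate, 383 at an adjusted p under 0.05 and 56 to 1290 leaving out each library, the lowest without KI 2, with 232 without KI 1, and the highest without WT 4. In skin, against 4, they were 109, 23, 0 with the replicate block, 1 with the Y-linked covariate, 2 with the length trend, 0 at 0.05 and 0 to 1. The Cachd1 call between liver and brain fell to 0 with no filter, no mouse block and an adjusted p under 0.05, and was 0 to 1 leaving out each mouse. Neighbours called between WT tissues stayed within 1.5 times. The edgeR fits that called Pde4b in liver called 800 genes in all with no filter, 698 with the length trend and 557 without WT 2. With the replicate block, which called Ppap2b, the liver count over all genes was 817. With none of these changes it was 833.

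None of the single-gene changes of sign below concerned a called gene, and their cause was not tested. In brain Ror1 turned to -0.545 with the replicate block, Ak4 to -0.0057 with the Y-linked covariate, and with the length trend Ak4 to -0.16, Pde4b to -0.079, Ror1 to -0.0601 and Sgip1 to -0.0312. In skin Ak4 turned to 0.0105 with the Y-linked covariate. Leaving out each library, the log2 fold change ran from -0.45 to 0.41 for Ror1, -0.14 to 0.19 for Ak4 and -0.88 to 1.89 for Mier1 in brain. In liver it ran from -0.91 to 0.0665 for Raver2, -1.20 to 0.80 for Dnajc6 and -0.25 to 0.34 for Sgip1. In skin it ran from -0.28 to 0.64 for Lepr, -0.74 to 0.38 for Ak4, -0.14 to 0.0896 for Cachd1, -0.24 to 0.022 for Raver2 and -0.35 to 0.0545 for Ror1.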
